A study of Mus musculus with 17 samples.

Results

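A set of 7 genes of the neutrophil-attracting CXC chemokine system were followed across colon preparations of wild-type and MCJ-deficient mice: the CXCR2 ligands Cxcl1, Cxcl2, Cxcl3, Cxcl5 and Ppbp, their receptor Cxcr2, and Cxcl16. They were chosen by name, as the 7 of 27179 rows of the deposited count tables whose gene numbers carry these symbols. RNA was sequenced from cells of the colon of C57BL/6 mice aged 8 weeks, in 17 libraries and 6 groups. NN libraries carry no named treatment (3 wild-type, labelled WT, and 2 MCJ-deficient, labelled KO). NP mice received dextran sulfate sodium (DSS), which injures the colon epithelium, for 6 days without an antibiotic (3 WT and 3 KO). PP mice received a broad-spectrum antibiotic for 7 days and then DSS for 6 days (3 WT and 3 KO). MCJ is the mitochondrial protein encoded by Dnajc15. The labels do not say how the MCJ-deficient line was made. They give each library of a group its own mouse number, and p-values measure the spread between these samples.

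CXC chemokines are small secreted proteins that bind G protein-coupled receptors on white blood cells. The ligands that carry a glutamate-leucine-arginine motif before their paired cysteines, among them CXCL1, CXCL2, CXCL3, CXCL5 and PPBP, signal through CXCR2 and draw neutrophils from blood into inflamed tissue, the injured colon included. Their transcripts are short-lived, are induced by IL-1, TNF and microbial products through NF-kB, and are stabilised by IL-17. CXCL16 is a relative of another kind: a membrane-anchored chemokine, made by macrophages and dendritic cells and also a scavenger receptor, whose receptor is CXCR6 on T and NK cells. It lacks the motif of the CXCR2 ligands, so the label neutrophil-attracting covers the other ligands and Cxcr2 but not Cxcl16.

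The libraries held 29194744 to 37083344 counts. Genes of the mitochondrial genome took 38.9% to 50.4% of counts in WT NN and 23.1% to 28.35% in KO NN. In NP they took 32.25% to 40.9% in WT and 33.8% to 49.0% in KO, and in PP 38.7% to 48.4% and 25.4% to 35.2%. WT NN replicate 2 had 10075 genes with at least 10 counts, against 12383 to 14790 in the other libraries. Dnajc15 had 359 to 1534 counts in the WT libraries and 21 to 121 in the KO libraries, so it followed the genotype labels in every library. The tissue label was colon macrophages, and the protocols describe enzymatic digestion and washing with no sort. The 15 macrophage markers summed to 31.2 to 50.04 normalized CPM (counts scaled to the library total) in the NN libraries, against 21310 to 30330 CPM for 14 markers of colon epithelium, and to 2919 to 5569 CPM in 5 of the 6 PP libraries. Adgre1, the gene of the macrophage antigen F4/80, was between 0 and 0.0973 CPM in the WT NN libraries. In these bulk preparations more cells of a type and more RNA per cell cannot be told apart. WT PP replicate 11 stood apart from its group: its macrophage markers summed to 644 CPM, against 5087 and 4860 CPM in the other two, and the calls that rest on the WT PP group are also given without it.

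Of the 7 genes, 5 lie in 1 cluster. On GRCm38 chromosome 5, within 146.6 kb and all on the + strand, they follow each other in the order Cxcl5 (90759298 to 90761625), Ppbp (90768518 to 90770063), Cxcl3 (90786101 to 90788093), Cxcl1 (90891245 to 90893121) and Cxcl2 (90903899 to 90905938), with Pf4 between Ppbp and Cxcl3 and with Cxcl15 between Cxcl3 and Cxcl1. Cxcr2 is on chromosome 1 (74153994 to 74161246, + strand) and Cxcl16 on chromosome 11 (70454389 to 70459984, - strand). The span of Cxcl16 overlaps that of Zmynd15, and as the strand setting of the counting is not given in the sources used here, reads of the overlap cannot be assigned. Zmynd15 had 0 to 290 counts per library against 453 to 9156 for Cxcl16. Cxcl2 and Cxcl3 share 126 stretches of 50 identical bases, 5.84% of those of Cxcl2 and 3.51% of those of Cxcl3, so the split of reads between this pair is uncertain to that extent. No other pair of the 7 shared a stretch of that length.

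The RefSeq promoter table for GRCm38.p6 holds 5 of the 7 genes. The promoters of Cxcl1, Cxcl2 and Cxcl3, whose log2 CPM correlated over the 17 libraries (Pearson r of 0.91 to 0.99), are shown. Beside them is that of Ppbp, a near neighbour in the cluster with at most 11.6 CPM in any library. Ppbp was not unchanged: from few counts, its fitted log2 difference from NP to PP was 5.51 (SE 1.82) in WT and 4.56 (SE 1.69) in KO. Each run covers 110 bases before the transcript start and the first 10 bases of the transcript, 5′ to 3′ on the + strand, and capitals mark a match to the 10-letter NF-kB consensus.
Cxcl1 chr5:90891135-90891254: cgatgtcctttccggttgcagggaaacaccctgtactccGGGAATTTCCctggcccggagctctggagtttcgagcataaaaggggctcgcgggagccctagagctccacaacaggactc
Cxcl2 chr5:90903789-90903908: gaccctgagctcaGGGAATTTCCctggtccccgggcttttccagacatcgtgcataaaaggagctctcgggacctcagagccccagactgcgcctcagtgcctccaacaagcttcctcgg
Cxcl3 chr5:90785991-90786110: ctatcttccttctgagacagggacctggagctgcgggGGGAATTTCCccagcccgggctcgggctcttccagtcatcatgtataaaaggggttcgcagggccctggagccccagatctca
Ppbp chr5:90768408-90768527: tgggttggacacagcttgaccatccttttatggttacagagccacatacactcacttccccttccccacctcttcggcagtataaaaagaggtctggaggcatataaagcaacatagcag
Searched on both strands over the 250 bases before and 50 after the start, the NF-kB consensus matched once in each of Cxcl1, Cxcl2 and Cxcl3, beginning 71, 97 and 73 bases before the start (positions -71, -97 and -73). The matched letters were the same in all 3, GGGAATTTCC. Of 32851 promoters in the table, 1907 (5.8%) held the consensus and 29 (0.0883%) held these exact letters. The consensus was not found in the Ppbp or Cxcr2 window. The AP-1 site, letters TGANTCA, was in the Ppbp window at position -204 and in 2565 promoters (7.81%), and it was not found in the windows of the other 4. These matches describe the sequence and are not evidence of binding.

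**Figure D1:**
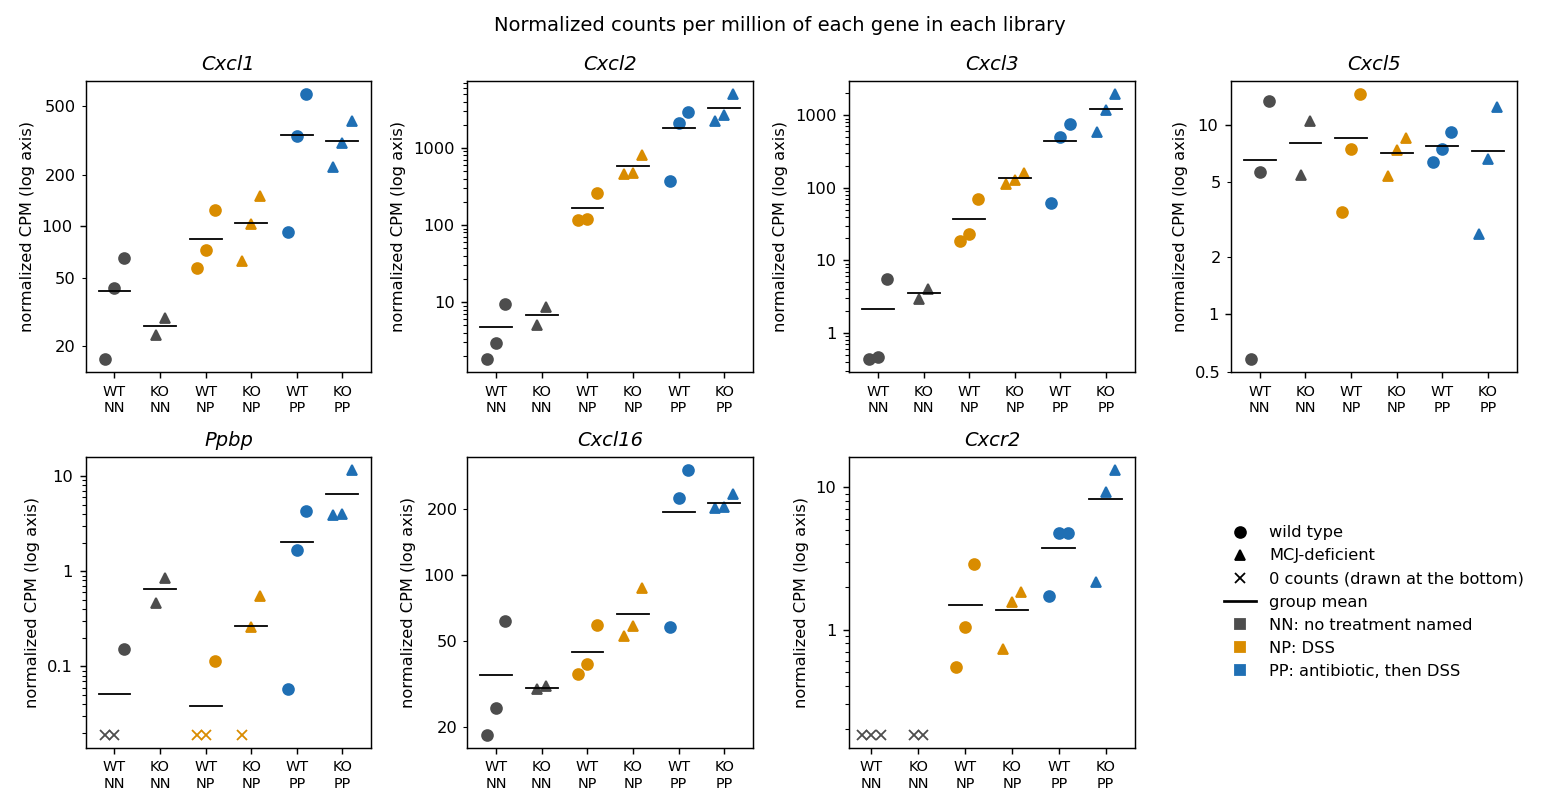
Normalized CPM (log axis) of the 7 genes in each of the 17 libraries, grouped by genotype (circle, WT; triangle, KO) and condition (grey, NN; orange, NP; blue, PP), with bars at group means and crosses for 0 counts. Cxcl2 runs from 1.83 CPM in a WT NN library to 4974 CPM in a KO PP library, while Cxcl5 stays between 0.584 and 14.5 CPM in every group.

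Cxcl2 and Cxcl3, chemokines of activated macrophages and neutrophils, showed the widest range of the ligands. Cxcl2 was at 9.45, 2.92 and 1.83 CPM in the 3 WT NN libraries and at 8.73 and 5.01 CPM in the 2 KO NN libraries. With DSS it was at 116, 121 and 261 CPM in WT NP and at 469, 815 and 463 CPM in KO NP. With the antibiotic before DSS it was at 2891, 374 and 2118 CPM in WT PP and at 2689, 4974 and 2237 CPM in KO PP. The 3 conditions did not overlap in either genotype, and WT PP replicate 11 was the lowest library of the PP condition. Over the 16958 genes tested, NP lay above NN without overlap for 12% in WT and 19% in KO. PP lay above NP without overlap for 11.6% in WT and 12.8% in KO. Cxcl3 followed the same order at lower levels. It was at 5.48, 0.438 and 0.459 CPM in WT NN, at 4.05 and 2.96 in KO NN, at 18.5, 23.3 and 70.8 in WT NP and at 130, 162 and 113 in KO NP. In PP it was at 767, 60.9 and 498 CPM in WT and at 1189, 1948 and 580 CPM in KO. The WT PP library at 60.9 CPM, replicate 11, lay within the range of WT NP, so those 2 groups overlapped.

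Both genes rose with DSS in each genotype. edgeR's quasi-likelihood test, adjusted over all genes tested (Benjamini-Hochberg) and called at an adjusted p under 0.05, was used for all calls. In WT, 3 of the 7 genes were called higher with DSS, where 2.25% of 16958 tested genes were. Cxcl2 rose by 5.13 on the log2 scale (SE 0.74, adjusted p = 0.00129) and Cxcl3 by 4.13 (SE 0.94, adjusted p = 0.0253), and Cxcr2 was the other. In KO the 3 were the same genes, against 2.04% of all genes: Cxcl2 rose by 6.40 (SE 0.94, adjusted p = 0.00123) and Cxcl3 by 5.27 (SE 1.18, adjusted p = 0.0204). The call of Cxcl2 held with each library left out, with an adjusted p of at most 0.0107 in WT and 0.0441 in KO. The call of Cxcl3 in WT was lost without WT NN replicate 2 (adjusted p = 0.086) or 3 (0.054) or WT NP replicate 9 (0.0894), and in a fit of those 2 groups alone (0.185). In KO it was lost without NN replicate 13 (0.25) or 14 (0.298), either of which leaves 1 KO NN library, assumed to vary like the other groups. Macrophage marker sums rose over the same libraries, to 154 to 245 CPM in WT NP and 536 to 1572 in KO NP, and their part in these changes was not tested. Of the 15 markers, 6 were called higher with DSS in WT and 9 in KO.

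The antibiotic before DSS went with a further rise in WT. There, 4 of the 7 genes were called higher in PP than in NP, against 3.49% of all genes: Cxcl1, Cxcl2, Cxcl3 and Cxcl16. Cxcl2 rose by 3.43 (SE 0.68, adjusted p = 0.00734) and Cxcl3 by 3.56 (SE 0.90, adjusted p = 0.0315). Without WT PP replicate 11 the values were 3.92 (adjusted p = 0.000348) and 4.08 (0.00432), and 5 genes were called. The number of calls rested on single libraries. It was 0 without WT NP replicate 7 or 8, where Cxcl2 had adjusted p = 0.0625 and 0.0549, and 1, Cxcl2, without WT NP replicate 9 or WT PP replicate 10 or 12 and in a fit of those 2 groups alone. In KO no gene of the 7 was called by edgeR in the fit of all 17 libraries, against 1.34% of all genes, although 6 had an unadjusted p under 0.05. So had 2417 of all 16958 genes tested. With other settings there were calls in KO: DESeq2 called 5, edgeR called 5 in a fit of those 2 groups alone and 3 with no filter on low counts. In the fit of all 17 libraries Cxcl2 differed in KO by 2.503 (SE 0.65, adjusted p = 0.0604) and Cxcl3 by 3.20 (SE 0.89, adjusted p = 0.0752). PP lay above NP without overlap for both genes, as for 12.8% of all genes tested. Without KO PP replicate 24 both were called (adjusted p = 0.0401 and 0.0436). These comparisons share the NP libraries with those of DSS. Of the macrophage markers, 11 of 15 were called higher in PP than in NP in WT (12 without WT PP replicate 11) and 1 in KO, and their part was not tested.

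Set against NN directly, the antibiotic and DSS together gave 5 calls among the 7 in each genotype: Cxcl1, Cxcl2, Cxcl3, Cxcr2 and Cxcl16. All 5 were higher, where 12.8% of all genes were called higher in WT and 6.52% in KO. Cxcl2 rose by 8.56 in WT (SE 0.86, adjusted p = 6.29e-06) and 8.91 in KO (SE 1.06, adjusted p = 4.86e-05). Cxcl3 rose by 7.69 (SE 1.10, adjusted p = 0.000128) and 8.47 (SE 1.37, adjusted p = 0.000603). Without WT PP replicate 11 the WT values were 9.05 and 8.21. The median over the 7 genes was 5.14 in WT and 3.58 in KO on the log2 scale, beside 0.27 and 0.06 over all genes tested, with no test of the list. These contrasts share their NN and PP libraries with the comparisons above.

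Cxcl1, known from epithelium, fibroblasts and endothelium as well as myeloid cells, started higher and moved less. It was at 65.4, 43.4 and 16.8 CPM in WT NN, 29.1 and 23.2 in KO NN, 57.1, 72.4 and 124 in WT NP and 102.4, 149 and 62.8 in KO NP. In PP it was at 335, 92.2 and 589 CPM in WT and at 222, 412 and 307 CPM in KO. The NN and NP groups overlapped in WT. In KO, NP lay above NN without overlap, as for 19% of all genes tested. Every PP library but WT replicate 11 lay above all NP libraries. The change with DSS did not pass the test in WT (1.01, SE 0.55, adjusted p = 0.37) or in KO (2.00, SE 0.65, adjusted p = 0.194), where DESeq2 (0.0212) and a fit of those 2 groups alone (0.00428) did call it. From NP to PP Cxcl1 rose by 2.00 in WT (SE 0.56, adjusted p = 0.0499). That call was lost with mitochondrial genes removed (adjusted p = 0.0557) and without WT NP replicate 7, 8 or 9 (0.213, 0.169 and 0.0775) or WT PP replicate 10 or 12 (0.157 and 0.292), and without WT PP replicate 11 the change was 2.45 (0.00411). In KO the same difference was 1.58 (SE 0.55, adjusted p = 0.166). From NN to PP it rose by 3.02 in WT (SE 0.58, adjusted p = 0.00154) and 3.58 in KO (SE 0.71, adjusted p = 0.00313), and the KO call was lost without NN replicate 14 (0.0578). The WT rise was 3.46 without WT PP replicate 11 (adjusted p = 0.000125).

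Cxcl5, in the mouse a product mainly of epithelium and of stromal cells, did not pass the test in any comparison. It was at 13.3, 0.584 and 5.62 CPM in WT NN, 10.5 and 5.42 in KO NN, 3.48, 7.49 and 14.5 in WT NP and 8.502, 5.39 and 7.33 in KO NP. In PP it was at 6.40, 7.50 and 9.22 CPM in WT and at 6.58, 12.5 and 2.67 CPM in KO. All 6 groups overlapped. Its fitted difference from NN to PP was 0.24 in WT (SE 0.77, adjusted p = 0.869) and -0.14 in KO. The SE leaves room for a change of moderate size in either direction.

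Ppbp, the precursor of platelet basic protein and a product of megakaryocytes and platelets, was near the limit of detection outside PP. It had 0, 0 and 4 counts in WT NN and 32 and 18 in KO NN. In NP it had 0, 0 and 5 counts in WT and 26, 9 and 0 in KO. In PP it had 130, 2 and 55 counts in WT and 478, 151 and 121 in KO, the last 3 being 11.6, 4.03 and 3.84 CPM. In the fits used for all calls Ppbp did not pass in any comparison, the nearest being PP against NN in WT (5.14, SE 1.83, adjusted p = 0.0552). Without WT PP replicate 11, which had 2 counts, Ppbp was called in WT against NN (adjusted p = 0.0294) and against NP (0.0423), and without WT NN replicate 3 it was called against NN (0.0337). With all libraries DESeq2 called it from NN to PP in WT (0.00553) and from NP to PP in WT (0.00519) and KO (0.0262). edgeR called it from NN to PP in WT with no filter on low counts (0.0422), and in fits of the 2 KO groups alone from NN to PP (0.0349) and from NP to PP (0.0386). The 9 platelet markers summed to 1.08 to 3.45 CPM in NN and to 4.31 to 52.2 CPM in PP, a rise made up mostly of Pf4. Without Pf4 the sums were 0.764 to 3.45 CPM in NN and 4.08, 1.10 and 2.06 CPM in WT PP and 18.5, 2.61 and 1.08 CPM in KO PP, so 4 of the 6 PP libraries lay within the NN range. In NN the KO libraries had more Ppbp than WT but lower platelet sums, 1.08 and 1.26 against 1.68 to 3.45 CPM. KO PP replicate 22 was highest in Ppbp and in both sums, and it held all 9 markers, with 4.01 CPM of Gp9 and 3.02 CPM of Tubb1, which were at 0 in every NN library. Red blood cell markers were also uneven in PP, with sums of 257 to 347 CPM in WT and of 7592, 11580 and 751 CPM in KO. The part of these markers in the Ppbp values was not tested.

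The make-up of the ligand pool changed from Cxcl1 to Cxcl2. To compare genes, CPM were divided by transcript length in kb and each ligand was taken as a share of the 5 CXCR2 ligands of its library. Cxcl1 made up 75.4%, 93.0% and 75.2% in WT NN and 61.2% and 68.3% in KO NN. Its share was 29.3% to 35.7% in WT NP, 11.0% to 16.2% in KO NP, 9.45% to 20.4% in WT PP and 6.06% to 11.0% in KO PP. Cxcl2 took 5.37% to 9.36% in WT NN, 12.7% to 15.8% in KO NN, 51.3% to 56.6% in WT NP, and 63.1% to 70.0% in the other 3 groups. Cxcl3 reached 30.5% in KO PP replicate 22. Cxcl5 made up 0.76% to 15.2% of the pool in WT NN, 9.67% to 13.4% in KO NN and at most 0.96% in PP. The WT ranges overlapped, with 0.76% in NN replicate 2 and 0.96% in PP replicate 11. The level of Cxcl5 itself had no called change. The sum of the ligands went from 23.5 to 91.1 CPM per kb in NN up to 498 to 6846 in PP. Ppbp was at most 1.56% in any library.

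**Figure D2:**
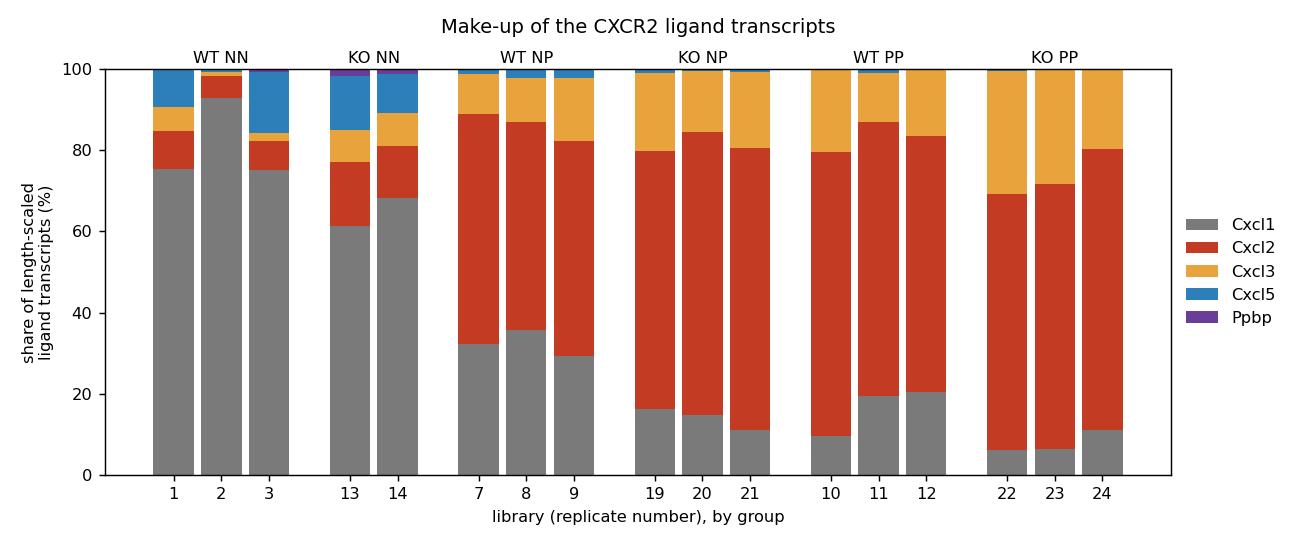
Share (%) of each of the 5 CXCR2 ligands in the sum of their length-scaled CPM, 1 bar per library, grouped by genotype and condition. Cxcl1 (grey) fills 61.2% to 93.0% of the NN bars and Cxcl2 (red) 51.3% to 70.0% of the NP and PP bars.

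The ratio of Cxcl2 to Cxcl1 counts needs no scaling between libraries. It was 0.144, 0.0673 and 0.109 in WT NN and 0.3 and 0.216 in KO NN. In NP it was 2.04, 1.67 and 2.11 in WT and 4.58, 5.46 and 7.37 in KO. In PP it was 8.62, 4.05 and 3.59 in WT and 12.1, 12.1 and 7.29 in KO. KO lay above WT without overlap in NN and NP and overlapped with it in PP. Levels of single genes lay KO above WT without overlap for 20.4% of all genes tested in NN and 9.8% in NP. No such share was computed for ratios. The ratio was chosen after the values were seen and is given as a description.

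Cxcr2, the receptor that neutrophils use to follow these ligands, had 0 counts in all 5 NN libraries, which allows up to 0.0422 CPM over the WT group and 0.039 over the KO group (3 counts each, for counting error). With DSS it had 17, 109 and 46 counts in WT (0.548, 2.87 and 1.05 CPM) and 88, 25 and 54 in KO (1.84, 0.724 and 1.56 CPM). In PP it had 145, 59 and 157 counts in WT (4.80, 1.71 and 4.75 CPM) and 90, 497 and 290 in KO (2.18, 13.2 and 9.21 CPM). The rise with DSS passed the test in WT (adjusted p = 0.00848), where it was at least 36.2-fold, and in KO (adjusted p = 0.0152), where it was at least 36.6-fold, each against 3 counts over the NN group. From NN to PP it was at least 87.6-fold in WT and at least 203.8-fold in KO (adjusted p = 0.000556 and 0.00124). Without WT PP replicate 11 the WT rise was at least 113.2-fold (adjusted p = 0.000464). The DSS call was lost in a fit of the 2 WT groups alone (0.229) and, in KO, without NN replicate 13 (0.218) or 14 (0.203). From NP to PP the difference did not pass the test in WT (1.33, SE 0.89, adjusted p = 0.519, and 1.68 without WT PP replicate 11, adjusted p = 0.383) or KO (2.57, SE 0.93, adjusted p = 0.201).

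Of the neutrophil markers, 9 of 12 tested were called higher with DSS in each genotype, as Cxcr2 was. Over all genes tested, 2.25% were called higher in WT and 2.04% in KO. The 14 genes of the list summed to 25.7 to 65.6 CPM in NN, of which all but 1.47 to 5.08 CPM was Ly6g, and Camp, Mpo and Elane were at 0 in every NN library. The sum was 309 to 707 CPM in NP and 347 to 5884 CPM in PP, highest in KO PP replicate 23, which was also highest in Cxcr2. Within NP the order of libraries differed: WT replicate 8 had the most Cxcr2 (2.87 CPM) and the lowest neutrophil sum of its group (418 CPM), and KO replicate 20 the least Cxcr2 (0.724 CPM) and the highest sum of its group (650 CPM). S100a9, a calcium-binding protein abundant in neutrophils, was at 0.184 to 0.612 CPM in NN and at 66.5 to 270 CPM in NP. Mpo and Elane, granule genes of immature neutrophils, stayed at or below 0.314 CPM in every library. Other genes of the list went the other way and were highest in KO PP. There Ngp was at 50.9 to 161 CPM, Ltf at 2.67 to 11.8 and Mmp8 at 167 to 360. In WT PP they were at 0.029 to 4.08, 0.423 to 2.19 and 2.49 to 60.8 CPM. The part of these markers in the Cxcr2 values was not tested.

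Cxcl16, the ligand of CXCR6, was called higher in PP but not with DSS alone. It was at 18.5, 61.3 and 24.5 CPM in WT NN, 30.8 and 30.0 in KO NN, 59.1, 35.2 and 39.2 in WT NP and 58.4, 87.0 and 52.4 in KO NP. In PP it was at 303, 57.4 and 225 CPM in WT and at 204, 234 and 205 CPM in KO. WT PP replicate 11 lay within the NP range and the other 5 PP libraries above it. The DSS change did not pass the test in WT (0.35, SE 0.47, adjusted p = 0.769) or KO (1.12, SE 0.55, adjusted p = 0.621), where a fit of those 2 groups alone did call it (0.0233). From NP to PP Cxcl16 rose by 2.13 in WT (SE 0.49, adjusted p = 0.0201), and by 2.57 (0.000579) without WT PP replicate 11. That call was lost without WT NP replicate 7, 8 or 9 (0.0566, 0.0967 and 0.0876), WT PP replicate 10 or 12 (0.145 and 0.068), and in a fit of those 2 groups alone (0.0565). In KO the difference was 1.70 (SE 0.48, adjusted p = 0.0821). From NN to PP it rose by 2.49 in WT (SE 0.50, adjusted p = 0.00205) and 2.82 in KO (SE 0.59, adjusted p = 0.005). The WT rise was 2.93 without WT PP replicate 11 (adjusted p = 8.26e-05). The WT call was lost in a fit of those 2 groups alone (0.0503), and the KO call was lost without NN replicate 13 (0.0737) or 14 (0.0683).

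**Figure D3:**
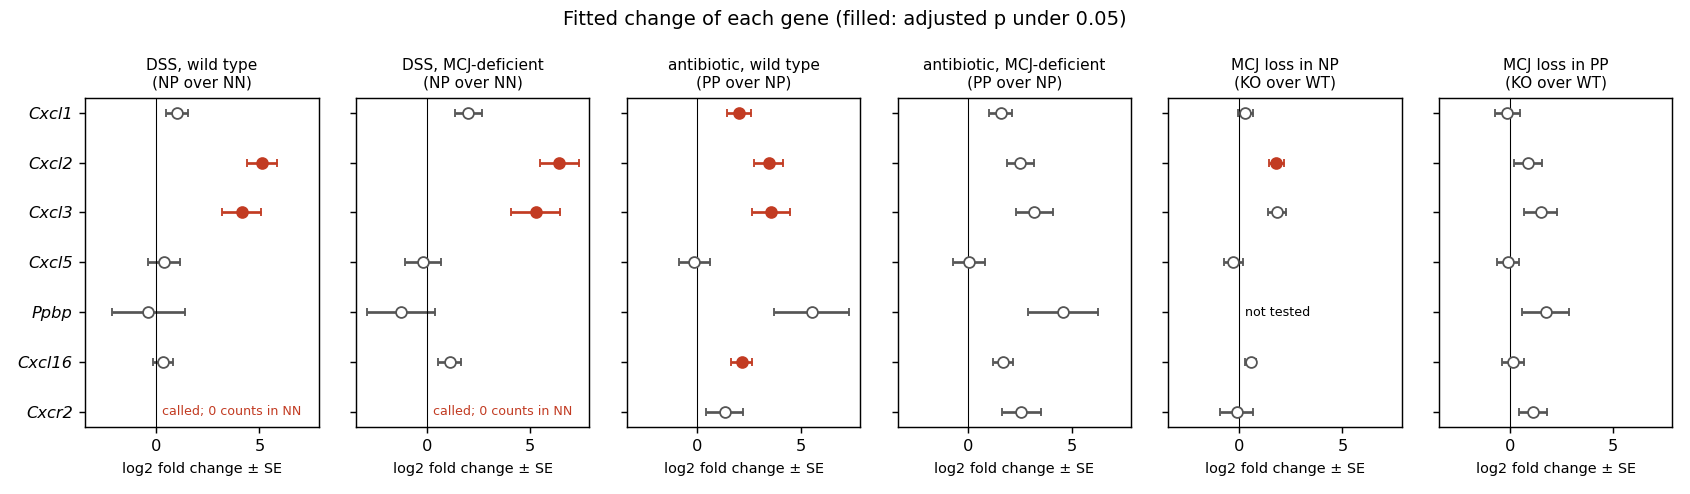
Fitted log2 fold change ± SE of the 7 genes in 6 comparisons, with filled red points for an adjusted p under 0.05. In the DSS panels Cxcr2 was called but had 0 counts in NN, so no point is drawn, and Cxcl2 and Cxcl3 stand at 5.13 and 4.13 in WT and at 6.40 and 5.27 in KO.

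MCJ deficiency was tested within each condition, which asks whether loss of this mitochondrial protein went with a change in the chemokines. In NP, 1 of 6 genes tested was called, Cxcl2, against 0.983% of 14452 genes. Cxcl2 was higher in KO, at 463 to 815 CPM against 116 to 261 CPM, by 1.81 (SE 0.34, adjusted p = 0.0299). KO lay above WT without overlap for Cxcl2, as for 9.8% of all genes tested. Cxcl3 did not overlap either, at 113 to 162 against 18.5 to 70.8 CPM, and missed the threshold (1.85, SE 0.43, adjusted p = 0.0837). It was called by DESeq2 (0.000423), with no filter on low counts (9.09e-05) and without WT NP replicate 9 (0.00334). The call of Cxcl2 was lost without WT NP replicate 7 (0.172) or 8 (0.213) or KO NP replicate 20 (0.156) or 21 (0.0555), and in 1 fit of all 17 libraries (0.778), with the log2 difference between 1.49 and 2.29 throughout. The other genes tested differed by less: Cxcl16 by 0.57 (SE 0.28), Cxcl1 by 0.31 (SE 0.35), Cxcr2 by -0.12 (SE 0.79) and Cxcl5 by -0.26 (SE 0.46), and Ppbp was too low to be tested.

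Macrophage markers differed in the same direction in NP: 8 of 15 were called higher in KO, as were 4 of 7 monocyte markers. The macrophage sum was 536 to 1572 CPM in KO against 154 to 245 CPM in WT. The monocyte sum lay lower in KO with overlap, 658 to 1286 against 956 to 1719 CPM. Of its markers, Plac8 was at 560 to 965 CPM in KO and 908 to 1636 in WT, and Ly6c2 at 16.4 to 39.8 and 31.4 to 63.3. Of 11 neutrophil markers tested, 0 were called by edgeR and 5 had an unadjusted p under 0.05, 3 of them higher in KO and 2 lower. The 3 were Trem1 (1.33, adjusted p = 0.0775), Il1r2 (1.28, adjusted p = 0.312) and Retnlg (1.17, adjusted p = 0.209), and the 2 were S100a9 (-0.78) and Ly6g (-0.94), all named after their values were seen. Trem1 was at 21.7 to 36.6 CPM in KO and 8.36 to 14.4 in WT, KO above without overlap as for 9.8% of all genes tested. The neutrophil sums, to which S100a8 and S100a9 gave the most counts, were 309 to 650 CPM in KO and 418 to 707 CPM in WT. Next came Retnlg in KO (10310 counts over the group, Ly6g 6364) and Ly6g in WT (11927, Retnlg 4541). Cd14 and Lyz2 gave the most counts to the macrophage sums in NP and PP. In NP, Cd14 came first in WT (13289 counts over the group, Lyz2 5229) and Lyz2 in KO (51880, Cd14 31234). In PP, Lyz2 came first in WT (144903, Cd14 92617) and Cd14 in KO (223469, Lyz2 110305). Relative to the macrophage sum of its own library, Cxcl2 was 0.579, 0.787 and 1.06 in WT NP and 0.875, 0.518 and 0.549 in KO NP, and these overlapped. In PP the same ratio was 0.568, 0.58 and 0.436 in WT and 0.793, 0.893 and 0.766 in KO, with no overlap, and that of Cxcl3 was 0.0945 to 0.151 in WT and 0.199 to 0.351 in KO. The levels of both genes overlapped between the genotypes in PP. Levels of single genes lay KO above WT there without overlap for 5.52% of all genes tested, with no such share computed for ratios. In NN the Cxcl2 ratio was 0.303, 0.0819 and 0.0379 in WT and 0.174 and 0.11 in KO. These ratios were chosen after the values were seen and carry no test. The part of the marker difference in the Cxcl2 call was not tested.

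**Figure D4:**
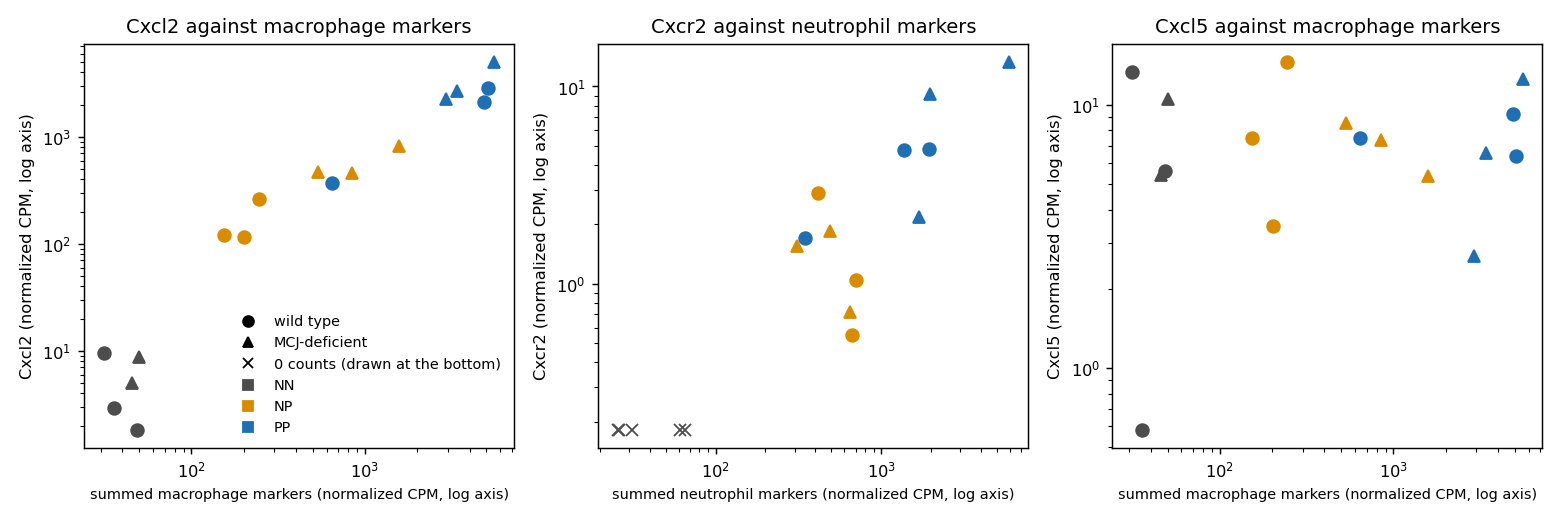
Normalized CPM of Cxcl2 and Cxcl5 against the summed macrophage markers, and of Cxcr2 against the summed neutrophil markers, 1 point per library on log axes (circle, WT; triangle, KO; cross, 0 counts). Cxcl2 climbs with the macrophage sum from NN (31.2 to 50.04 CPM) to PP (644 to 5569 CPM), while Cxcl5 has no such slope. Cd14 and Lyz2 gave the most counts to the macrophage sum in NP and PP.

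In NN and in PP none of the genes tested among the 7 was called between the genotypes by edgeR or DESeq2. None had an unadjusted p under 0.05 in edgeR, where 0% of 13559 and 0% of 14556 genes were called higher. Cxcr2, at 0 counts in every NN library, was not tested in NN, which left 6 genes there. In NN, Ppbp had more counts in both KO libraries than in any WT library (3.49, SE 2.20). KO lay above WT without overlap there for 20.4% of the 13559 genes tested. In PP the KO means were above WT for Cxcl2 (0.89, SE 0.66), Cxcl3 (1.49, SE 0.80), Ppbp (1.74, SE 1.12) and Cxcr2 (1.12, SE 0.69), with overlap for each. Without WT PP replicate 11 those of Cxcl2 and Cxcl3 were 0.41 (SE 0.43) and 0.98 (SE 0.52), those of Ppbp and Cxcr2 1.17 (SE 0.75) and 0.78 (SE 0.71), and that of Cxcl16 turned from 0.15 to -0.28 (SE 0.31). The change of the genotype difference between conditions was tested as an interaction. It was called for none of the 7 by edgeR or DESeq2, from NN to NP or from NP to PP, with none at an unadjusted p under 0.05 and 0% of 16958 genes called higher in either. For Cxcr2 the test from NN to NP could not decide, as both NN groups had 0 counts (-0.12, SE 166.4). Without WT PP replicate 11, edgeR called 4 of 16869 genes higher and 25 lower from NP to PP, and 0 of the 7. Among these calls were 5 of 15 macrophage markers, lower, and 1 of 12 neutrophil markers, higher. For Cxcl2 this interaction was -0.93 (SE 0.87), and -1.41 (SE 0.74) without that library. A larger effect of MCJ loss on Cxcl2 in NP than in NN or PP was therefore not shown.

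Among 20 inducers and regulators of the CXCR2 ligand transcripts, 3 were called higher with DSS in WT and 5 in KO, where 2.25% and 2.04% of all genes were. Calls from NP to PP numbered 7 and 6 (3.49% and 1.34% of all genes), and from NN to PP 13 and 12 (12.8% and 6.52%). The WT counts were 8 and 16 without WT PP replicate 11. Il1b, which drives Cxcl1 and Cxcl2 transcription through its receptor, had group means of 1.67 and 1.58 CPM in WT and KO NN, 84.3 and 354 CPM in NP and 1696 and 2090 CPM in PP. It rose with DSS by 5.64 in WT (SE 0.67, adjusted p = 0.000249) and by 7.80 in KO (SE 0.89, adjusted p = 0.00026). Il1a, the other IL-1, and Il36g (named Il1f9 in the annotation), an IL-1 relative of epithelium, were the others called in WT, and Tnf and Il6 joined them in KO. From NP to PP, Tnf rose by 2.67 in WT and 2.35 in KO, and Nfkbiz, a co-activator of NF-kB target genes, by 1.88 and 2.04, and without WT PP replicate 11 the WT rises were 3.05 and 2.24. In that step the median of the list was 1.81 in WT and 1.95 in KO, beside 0.06 and 0.01 over all genes. Il17rc, a subunit of the IL-17 receptor, was the gene of the list called lower, named here after its values were seen. It fell by 1.04 from NP to PP in WT (1.11 without WT PP replicate 11), and by 1.48 in WT and 1.46 in KO from NN to PP, in libraries whose epithelial marker sum was also lower, 10400 to 16640 CPM in PP against 21310 to 30330 CPM in NN, and the part of that difference was not tested.

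Between the genotypes in NP, Il1a and Il1b were the 2 of 18 inducers tested that were called, where 0.983% of all genes were called higher. They were higher in KO by 3.31 (SE 0.36, adjusted p = 0.00275) and 2.07 (SE 0.27, adjusted p = 0.00473). Il1a was at 68.0 to 182 CPM in KO NP and at 9.90 to 13.4 CPM in WT NP, with no overlap. KO lay above WT in this way for 9.8% of all genes tested. Tnf differed by 1.14 (SE 0.29, adjusted p = 0.122).

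Of 13 other neutrophil growth factors, attractants and receptors, 9 were called higher with DSS in WT and 10 in KO, against 2.25% and 2.04% of all genes. Calls from NP to PP numbered 9 and 6 (3.49% and 1.34% of all genes), and from NN to PP 13 and 11 (12.8% and 6.52%). The WT counts were 12 and 13 without WT PP replicate 11. Csf3, the neutrophil growth factor G-CSF, was at 0 to 0.0486 CPM in WT NN and at 8.46 to 15.6 CPM in WT NP. Its receptor Csf3r was at most 0.0486 CPM in any NN library and at 5.27 to 12.1 CPM in the NP libraries of both genotypes. C5ar1, receptor of the complement attractant C5a, had group means of 6.76 CPM in WT NP and 57.4 CPM in WT PP, and rose by 3.09 between them (SE 0.51, adjusted p = 0.00249), or by 3.53 without WT PP replicate 11. In NP, Itgam and Itgb2, the chains of the adhesion receptor Mac-1, and Alox5ap, of leukotriene synthesis, were called higher in KO, by 2.20, 2.03 and 1.84.

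Of 13 genes of CXCR2 signalling, 0 were called by edgeR with DSS in WT (6 at an unadjusted p under 0.05) and 3 in KO, against 2.25% and 2.04% of all genes. Calls from NP to PP were 5 in WT and 0 in KO (8 at an unadjusted p under 0.05), against 3.49% and 1.34%, and from NN to PP 10 and 8, against 12.8% and 6.52%. In WT these became 8 from NP to PP and 10 from NN to PP without replicate 11. With DSS in KO, Fgr, a kinase of myeloid cells, rose by 6.38 and Rac2, the Rac GTPase of blood cells, by 4.73. Rac2 was also called higher in KO than in WT in NP, by 1.49. Many of these genes are expressed by macrophages as well as neutrophils, and both marker sums moved over the same libraries.

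Receptors that clear or share these ligands were few. Cxcr1, the other receptor of some of them, was at most 0.64 CPM in any library and 0 in all NN libraries. Ackr1, the scavenging receptor of endothelium and red cells, was called higher in KO with DSS (5.29, SE 1.29, adjusted p = 0.0356) and from NN to PP (5.38, SE 1.29, adjusted p = 0.0121). It was at 0 and 0.386 CPM in KO NN, at 2.03 to 3.06 CPM in WT NN and at 3.50 to 13.6 CPM in KO NP. Cxcr6, the receptor of CXCL16, was at most 2.11 CPM in any library. Adam10 and Adam17, proteases that shed CXCL16 from the membrane, were called higher from NN to PP in WT, by 1.66 and 2.90 (1.76 and 3.27 without WT PP replicate 11), and in no other comparison.

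Of 12 other CXC chemokines and receptors, 11 of them tested across conditions, 0 were called higher by edgeR with DSS in WT (4 at an unadjusted p under 0.05) and 1 in KO, against 2.25% and 2.04% of all genes. Calls from NP to PP numbered 2 and 1 (3.49% and 1.34% of all genes), and from NN to PP 5 and 6 (12.8% and 6.52%). The WT counts were 3 and 5 without WT PP replicate 11. Cxcl10, an interferon-induced attractant of T cells, rose from NP to PP by 2.86 in WT (SE 0.69, adjusted p = 0.0245, and 3.34 without WT PP replicate 11) and 3.42 in KO (SE 0.71, adjusted p = 0.0324). Cxcr4, the receptor of CXCL12, was the gene called higher in KO in NP, by 2.37 (SE 0.43, adjusted p = 0.0245).

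Across the 17 libraries the log2 CPM of Cxcl2 and Cxcl3 were nearly parallel (Pearson r = 0.99), and Cxcl1 followed both at 0.91. Cxcr2 followed Cxcl2 at 0.95, whereas Cxcl5 had r between -0.11 and 0.36 with the other 6. Among 11864 genes, those most like Cxcl2 were Cd53, Clec4e and C5ar1 (r = 0.99 each) and those most like Cxcl3 were Vsir, Cd53 and Lilr4b (0.99, 0.98 and 0.98). Hilpda and Tnf were closest to Cxcl1 (0.95 each), Lyn and Rab8b to Cxcl16 (0.97 each), and Mrgpra2a, Mrgpra2b and Mirt2 to Cxcr2 (0.97 each). Cxcl5 had Hlcs (0.93) and Ppbp had Cyth1 (0.91). These r, over 17 libraries in 6 groups that share conditions and scaling, are descriptions.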

How the data were processed

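RNA from 17 colon preparations was sequenced with an mRNA library kit. Per the submitters' processing notes, CASAVA 1.8.2, FastQC, Trim Galore, STAR 2.5.4 and DESeq2 were used with mm10. The counter, annotation and strand setting are not given in the sources used here. The authors deposited raw counts per gene in 3 tables of 27179 genes, 1 per condition, and no per-sample column was left unmapped. RefSeq named 25275 gene numbers and GENCODE 18, and 1886 stayed unnamed.

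Counts were tested with edgeR 4.0.16 in R 4.3.3 (filterByExpr, TMM, quasi-likelihood test, Benjamini-Hochberg over all genes tested, threshold 0.05). MCJ loss was tested within each table, and the other contrasts in 1 fit of all 17 libraries with 6 group means. Normalized CPM are counts over the TMM-scaled library total. A group at 0 was set at a floor of 3 counts over the group for fold bounds. Floors cover counting error only. Log2 CPM for correlations used a prior count of 2. Alternatives used DESeq2 1.42.0, other normalization, filters and fits, and each library left out. The scripts were tested on simulated data. The members and lists were chosen with earlier results of these data known. All 7 members were named, with up to 5 called genes of smallest p per list and comparison (further genes are given as values), and the 3 genes most correlated with each member among those of mean CPM of at least 1. The values of 1 listed gene are not reported here.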

Additional observations from a re-analysis of the deposited data

How the results depend on the processing

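Over single genes and comparisons, 803 of 872 alternative results kept their side of the threshold (765 of them with the same sign), 39 lost a call and 30 gained one. The sign changed in 38, none of them called in either fit. Among the 7 genes, the number called between the genotypes in NP was 1 and became 2 with no filter on low counts and 2 with DESeq2, but 0 in 1 fit of all libraries. From NP to PP in KO it was 0 and became 3 with no filter, 5 with DESeq2 and 5 in a fit of only the groups compared. In such fits of only the groups compared it was 1 with DSS in WT, 5 with DSS in KO and 1 from NP to PP in WT. With the mouse number of the titles as a replicate block it was 5 with DSS in KO and 0 between the genotypes in NN. In the titles 4 mouse numbers recur across groups, and the labels do not say that equal numbers mark related mice. No block was fitted in NP, where the genotypes share no number, or in PP, where they share only 1.

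With each library left out in turn, the number called ranged from 0 to 2 between the genotypes in NP, 2 to 3 with DSS in WT, 1 to 3 with DSS in KO, 0 to 5 and 0 to 2 from NP to PP in WT and KO, and 5 to 6 and 3 to 5 from NN to PP in WT and KO. It stayed at 0 between the genotypes in NN and PP and for both interactions. The cause of these changes was not tested. The lists were also counted without WT PP replicate 11, an alternative chosen after seeing the data. Where Ppbp or Cxcr2 had 0 counts, the depth sets only the bound that 3 counts allow.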
